A study of Mus musculus with 60 samples.

Results

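The liver zonation genes described here are 10 genes whose expression is known to differ between the hepatocytes around the central vein and those around the portal tract. They were Glul, Cyp2e1, Oat, Slc1a2, Axin2 and Cyp7a1 from the pericentral side, and Pck1, Hal, Gls2 and Sds from the periportal side. Members were taken by symbol, with array probes matched through their RefSeq accessions, which gave 14 probes for the 10 genes among 55681 probes and 20018 genes with a symbol. The rule uses no measured value. Where a gene had several probes, the brightest in liver was used and the others are given where they differ.

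Blood enters a liver lobule at the portal tract and leaves at the central vein, and oxygen, hormones and nutrients change along that path. Periportal hepatocytes are known for gluconeogenesis, urea formation and amino acid breakdown, whereas pericentral hepatocytes are known for cytochrome P450 metabolism, bile acid synthesis and the capture of remaining ammonium as glutamine. Wnt signals from the endothelium of the central vein maintain the pericentral program. Pericentral cells also hold most of the P450 enzymes that oxidise polycyclic aromatic hydrocarbons.

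Adult male Muta Mouse animals, a transgenic strain that carries a bacterial reporter for mutations, were about 10 weeks old and received benzo(ghi)perylene (BghiP), a polycyclic aromatic hydrocarbon, in olive oil by gavage on 28 successive days. Control mice (D0) had olive oil alone, and groups D1, D2 and D3 were given 6.25, 12.5 or 25 mg/kg-bw/day. Each group held 5 mice, and lung, liver and forestomach of the same 20 mice were collected 72 h after the last dose. All mice, controls included, carried the transgene and were gavaged with olive oil. Each of the 60 two-colour arrays held Cy5-labelled RNA of 1 tissue of 1 mouse against Cy3-labelled universal mouse reference RNA, a pool from mouse cell lines, and there were no dye swaps, so every value below is a log2 ratio of tissue to reference.

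Between 36.3% and 48.3% of the probes were well above background in Cy5 on a liver array, against 34.9% to 58.6% in lung and 21.3% to 53.3% in forestomach. All 6 hepatocyte markers were above background on every liver array. The liver arrays lay on 3 slides of their own and the lung and forestomach arrays on 5 others, so slide and tissue cannot be told apart, whereas each liver slide held all 4 doses. Dose also coincided with the column of the slide on all 60 arrays, so array column and dose cannot be told apart. A level was read from bulk liver, in which fewer cells of a zone and less RNA per cell cannot be told apart. In the other tissues 3 lung arrays (mice 1, 8 and 20) and 3 forestomach arrays (mice 2, 5 and 15) stood apart from the other arrays of their tissue in a marker list of another cell type, and results that rest on them are given with and without them. Hepatocyte markers were not limited to these arrays, since all 6 were above background on 9 of 20 forestomach arrays.

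The region before the start of transcription was available for 7 of the 10 genes, and 4 are shown because they hold the short motifs that are tied to the signals of zonation and fasting. The sequences are the 250 bases upstream of the RefSeq start in assembly GRCm38.p6, on the strand of the gene, and capitals mark the matches. The motifs searched on both strands were CTTTGA, the core bound by the TCF and LEF factors of Wnt signalling, TTACGTCA, a cyclic AMP response element, and TATAAA, the TATA box. None of them overlaps another in these windows.
Cyp2e1, chr7:140763569-140763818 (+): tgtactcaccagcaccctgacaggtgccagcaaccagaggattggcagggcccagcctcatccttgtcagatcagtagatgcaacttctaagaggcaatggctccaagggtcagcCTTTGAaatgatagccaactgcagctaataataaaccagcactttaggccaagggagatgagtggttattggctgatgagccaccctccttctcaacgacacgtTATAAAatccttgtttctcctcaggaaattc
Slc1a2, chr2:102706188-102706437 (+): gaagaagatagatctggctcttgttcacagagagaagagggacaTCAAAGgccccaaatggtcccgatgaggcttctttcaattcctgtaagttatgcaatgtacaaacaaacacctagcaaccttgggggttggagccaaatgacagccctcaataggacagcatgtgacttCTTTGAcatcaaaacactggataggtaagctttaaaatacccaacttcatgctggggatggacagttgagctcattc
Pck1, chr2:173152823-173153072 (+): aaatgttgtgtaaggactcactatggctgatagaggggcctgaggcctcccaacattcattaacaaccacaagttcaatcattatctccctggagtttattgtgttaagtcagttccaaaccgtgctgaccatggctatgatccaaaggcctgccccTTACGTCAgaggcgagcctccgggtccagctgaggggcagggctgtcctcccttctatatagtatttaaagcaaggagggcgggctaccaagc
Hal, chr10:93488518-93488767 (+): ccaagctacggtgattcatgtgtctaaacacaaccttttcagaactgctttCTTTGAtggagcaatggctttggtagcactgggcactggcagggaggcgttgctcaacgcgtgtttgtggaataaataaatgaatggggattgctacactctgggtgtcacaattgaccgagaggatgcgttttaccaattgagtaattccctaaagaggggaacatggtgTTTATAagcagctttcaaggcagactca
The cyclic AMP response element lay 93 to 86 bases before the start of Pck1, a gene known to respond to fasting signals, and the same letters were found in 0.447% of 32851 promoter windows. The TCF and LEF core lay 135 to 130 bases before the start of Cyp2e1, 77 to 72 and, on the reverse strand, 206 to 201 bases before that of Slc1a2, and 199 to 194 bases before that of Hal, and 13.8% of windows held it. Of the windows available it was in 2 of 5 pericentral genes and in 1 of 2 periportal genes. A TATA box lay 31 to 26 bases before the start of Cyp2e1 and, on the reverse strand, 28 to 23 bases before that of Hal, and was present in 12.4% of windows. None of the 3 motifs was in the windows of Glul, Oat or Axin2.

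The first comparison asked whether exposure changed the zonation genes in liver. At no dose did any of the 9 tested members pass the test (limma, Benjamini-Hochberg adjusted p of 0.05 or less and 1.5-fold or more), in either zone. Over all 25893 probes tested in liver, 0% were called at D1, 0% at D2 and 0% at D3, although 785, 1075 and 3145 probes had an unadjusted p under 0.05. A test by 100 shufflings of residuals likewise called 0 probes at each dose. It used limma's moderated statistic, not the Fs statistic that the study's methods name. Axin2 was not tested, since neither of its probes was well above background on any of the 20 liver arrays. A slope on dose, called on the adjusted p alone, passed for 0.239% of probes and for none of the 9 members. With slide as a block, 0.0927% of probes were called at D3 and 2.61% for the slope, again without a member. The 3 comparisons share the D0 mice, so that D0 mice with low values raise the change at every dose.

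**Figure D1:**
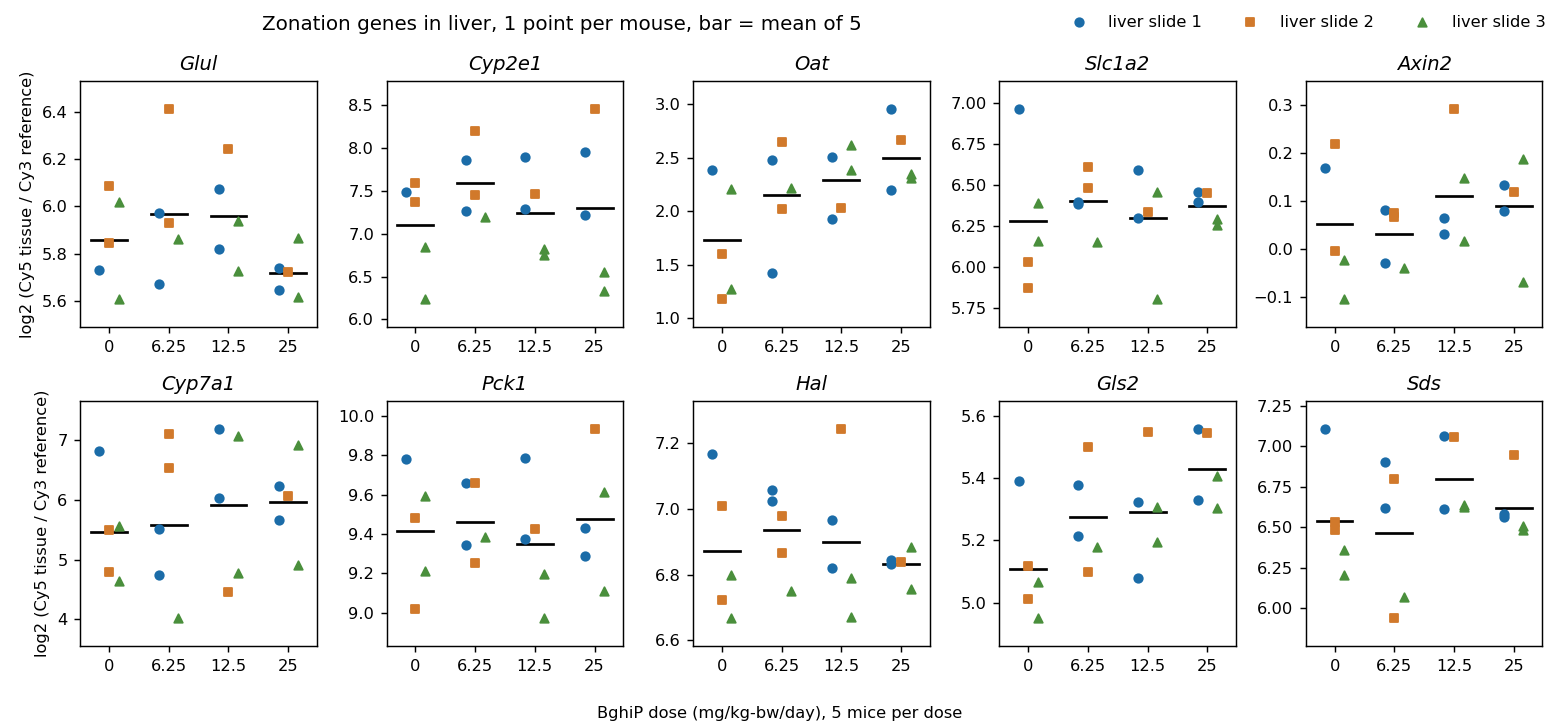
Log2 ratios of Cy5 (liver) to Cy3 (reference) of the members in each of the 20 mice, by dose in mg/kg-bw/day, with a point for each mouse, a mark and colour for each slide, and a bar for the mean of 5 mice. Cyp7a1 runs from 4.02 to 7.19 over the mice, whereas Hal stays between 6.67 and 7.24.

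Oat, which encodes ornithine aminotransferase and converts ornithine on the way to glutamate, had the largest change among the members. Its log2 ratios were 2.39, 2.21, 1.18, 1.60 and 1.28 in D0 mice 1 to 5, and 1.43, 2.48, 2.02, 2.65 and 2.21 in D1 mice 6 to 10. They were 1.93, 2.51, 2.03, 2.62 and 2.39 in D2 mice 11 to 15, and 2.20, 2.95, 2.67, 2.31 and 2.35 in D3 mice 16 to 20. D0 fell into 3 low mice and 2 that lay within the D3 range, so that the groups overlapped. Group means were 1.73 ± 0.54, 2.16 ± 0.48, 2.30 ± 0.30 and 2.50 ± 0.31 (SD, n = 5) from D0 to D3. The change at D3 was 0.77 ± 0.24 (SE), with a 95% interval of 0.27 to 1.26 and an adjusted p of 0.217 by limma. The D0 mean was exceeded by all 5 D3 mice, and D3 exceeded D0 on all 3 slides, by 0.19, 1.27 and 0.59, where each slide held 1 or 2 D0 mice and 1 or 2 D3 mice. The slope was 0.0282 ± 0.0090 log2 units per mg/kg-bw/day, with an adjusted p of 0.139, or 0.119 with slide as a block. In the reference channel the Oat probe varied little over the liver arrays (SD 0.16 on the log2 scale), against 0.50 in the liver channel.

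Gls2, the glutaminase that releases ammonium from glutamine in periportal cells, changed by less than Oat and Cyp7a1 but had the second lowest unadjusted p. Its log2 ratios were 5.39, 4.95, 5.01, 5.12 and 5.07 in D0 mice 1 to 5, and 5.21, 5.38, 5.50, 5.10 and 5.18 at D1. They were 5.08, 5.32, 5.55, 5.19 and 5.31 at D2, and 5.33, 5.56, 5.55, 5.31 and 5.41 at D3. Only mouse 1 of the controls reached the D3 range, and the groups overlapped through it. The change at D3 was 0.32 ± 0.10, with a 95% interval of 0.11 to 0.54 and an adjusted p of 0.221 by limma. Every D3 mouse was above the D0 mean, and the differences within the slides were 0.05, 0.48 and 0.35. The slope was 0.0118 ± 0.0038 per mg/kg-bw/day, with an adjusted p of 0.145, or 0.0694 with slide as a block. Thus the members with an unadjusted p under 0.05 at D3 were 1 gene of each zone, out of 9 tested (12.1% of all probes reached that level), and both were higher.

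Glul, glutamine synthetase, is known to be limited to the last rows of hepatocytes around the central vein. Log2 ratios were 5.73, 6.02, 5.84, 6.09 and 5.61 at D0, 5.67, 5.97, 5.93, 6.41 and 5.86 at D1, 5.82, 6.07, 6.24, 5.73 and 5.94 at D2, and 5.65, 5.74, 5.72, 5.87 and 5.62 at D3. The D3 values sat in the lower part of the D0 range, with 1 of 5 above the D0 mean. The change was −0.14 ± 0.12, with a 95% interval of −0.40 to 0.12 and an adjusted p of 0.695, and D3 was the lower dose on all 3 slides, by −0.04, −0.24 and −0.07. The spread of Glul between D3 mice (SD 0.10) was smaller than that between D0 mice (SD 0.20), a difference that was not tested.

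Cyp2e1, the P450 that oxidises ethanol and many small solvents, had log2 ratios of 7.49, 6.24, 7.36, 7.59 and 6.84 at D0 and of 7.86, 7.26, 7.45, 8.19 and 7.20 at D1. They were 7.90, 7.29, 7.46, 6.82 and 6.76 at D2 and 7.94, 7.22, 8.44, 6.56 and 6.34 at D3. The D3 mice spanned nearly the whole range of the 20, and the change was 0.20 ± 0.34 (adjusted p = 0.865, limma). The second Cyp2e1 probe changed by −0.06 ± 0.24, so the probes disagreed in sign and neither differed from D0 beyond the spread. Slc1a2, a glutamate transporter of pericentral hepatocytes, ran from 5.87 to 6.96 at D0 and from 6.26 to 6.46 at D3, with a change of 0.09 ± 0.16 (adjusted p = 0.872). Its other probes, drawn for another transcript and dimmer, changed by 0.21 and −0.18. Axin2, a feedback inhibitor and direct target of Wnt signalling, stayed at log2 ratios of −0.10 to 0.29 on its brighter probe, where no value was well above background, and these arrays hold only an upper bound for it.

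Cyp7a1, the rate-limiting enzyme of bile acid synthesis, gave log2 ratios of 6.83, 4.64, 5.50, 4.79 and 5.56 at D0 and of 4.74, 5.52, 6.53, 7.11 and 4.02 at D1. They were 6.04, 7.19, 4.46, 4.77 and 7.08 at D2 and 6.23, 5.67, 6.07, 6.92 and 4.91 at D3. High and low mice occurred at every dose, with the lowest of the 20 (mouse 10) and one of the highest (mouse 9) both at D1. The change at D3 was 0.50 ± 0.59, with a 95% interval of −0.72 to 1.72 and an adjusted p of 0.777, so changes of 1.5-fold in either direction lay within the interval at this spread. The reference channel was not above background for this probe on any liver array, so the ratio rests on the liver channel, whose log2 signal ran from 9.24 to 12.51.

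Among the remaining periportal genes, Pck1, which commits oxaloacetate to gluconeogenesis, had log2 ratios of 9.02 to 9.78 at D0 (median 9.48) and 9.11 to 9.93 at D3 (median 9.43), with a change of 0.06 ± 0.17. Hal, histidine ammonia-lyase, the first step of histidine breakdown, lay between 6.67 and 7.17 at D0 (median 6.80) and between 6.76 and 6.88 at D3 (median 6.84), a change of −0.04 ± 0.11. Sds, serine dehydratase, which feeds serine into gluconeogenesis, ran from 6.20 to 7.11 at D0 (median 6.48) and from 6.48 to 6.94 at D3 (median 6.56), a change of 0.08 ± 0.18. The adjusted p-values of these 3 genes were 0.924, 0.916 and 0.905, and their D3 and D0 values overlapped throughout.

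For 6 of the 9 members the 95% interval of the change at D3, not adjusted for the number of probes, lay inside 1.5-fold in both directions (Glul, Slc1a2, Pck1, Hal, Gls2 and Sds). For Oat, Cyp2e1 and Cyp7a1 the interval reached beyond 1.5-fold. These are the intervals of the brightest probe of each gene. A second Slc1a2 probe, also above background on all 20 liver arrays, had an interval of −0.35 to 0.77, which reached beyond 1.5-fold. The second Cyp2e1 probe had an interval of −0.57 to 0.44, which lay inside it. On the scanner program's processed signals the changes of Slc1a2, Pck1 and Sds had larger errors (0.13 ± 0.34, −0.19 ± 0.33 and −0.32 ± 0.29, SE), so for these 3 genes the bound did not hold there. Changes of the 9 members ran from −0.07 to 0.49 at D1, from −0.07 to 0.57 at D2 and from −0.14 to 0.77 at D3, where 7 of 9 were above 0 with a median of 0.09, among them Pck1 and Sds, which were below 0 on processed signals. No member had D3 and D0 values that did not overlap, against 0.919% of all probes wholly higher and 1.81% wholly lower at D3.

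**Figure D2:**
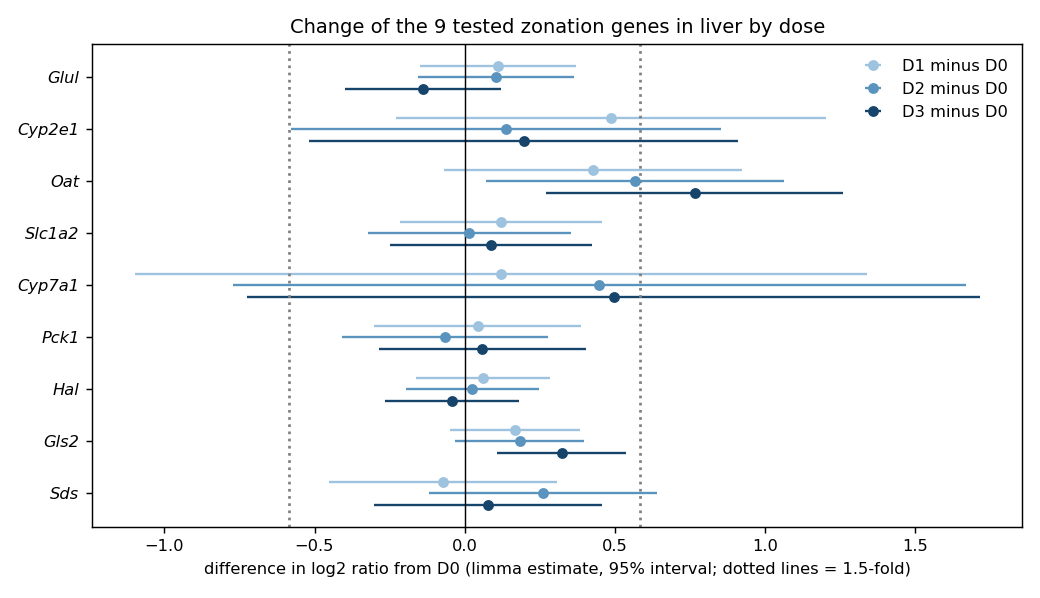
Change of each member from D0 in liver at D1, D2 and D3 (log2 scale), with points for limma estimates and bars for 95% intervals not adjusted for the number of probes. At D3 the bars of Oat (0.27 to 1.26) and Gls2 (0.11 to 0.54) lie above 0 and the others include it.

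The other genes of both zones were described by fixed lists. Of 20 further pericentral genes 19 were measured and tested in liver, 9 higher and 10 lower at D3 with a median change of −0.03, and none was called at any dose or for the slope. The largest changes were those of Sp5, a transcription factor induced by Wnt, at 0.69 ± 0.28 (adjusted p = 0.333), and of Lhpp, a phosphohistidine phosphatase, at 0.47 ± 0.17 (adjusted p = 0.277). Of 20 further periportal genes all were tested, 9 higher and 11 lower with a median of −0.04, again without a call. Mfsd2a, a transporter of lysophospholipids, changed by 0.54 ± 0.70 (adjusted p = 0.804) and Pigr, the receptor that carries immunoglobulin A across cells, by −0.44 ± 0.15 (adjusted p = 0.256). The median over all probes was 0.00, with 49.9% of probes above 0.

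Cyp7a1 and Pck1 are also governed by bile acids, by the time of day and by feeding, and the genes of those systems were counted in the same way. None of the 12 bile acid genes was called, with 6 higher and 6 lower at D3 and a median of 0.00. Cyp8b1, the sterol hydroxylase that sets the kind of bile acid made, changed by 0.57 ± 0.34 (adjusted p = 0.523), and Klb, a co-receptor for the intestinal hormone that restrains Cyp7a1, by 0.44 ± 0.25 (adjusted p = 0.503). Of 14 clock genes 11 were tested, 8 higher and 3 lower with a median of 0.27, and none was called. Dbp, an output of the clock, changed by 1.15 ± 0.61 (adjusted p = 0.468), and Nr1d1, a repressor within the clock, by 0.99 ± 0.35 (adjusted p = 0.260). Of the 12 fasting genes 4 were higher and 8 lower, with a median of −0.07, and none was called. Cpt1a, which admits fatty acids to mitochondria, changed by 0.46 ± 0.17 (adjusted p = 0.285), and Srebf1, which drives lipid synthesis, by −0.42 ± 0.13 (adjusted p = 0.216). With slide as a block Srebf1 passed for the slope, with an adjusted p of 0.028, a test that 2.61% of all probes passed, and was the only gene of these lists to do so. The hour of tissue collection and the time since feeding were not given in the sources used here, and their part in the spread of Cyp7a1 was not tested.

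None of the marker genes of any cell type was called in liver. All 4 Kupffer cell markers were higher at D3 with a median change of 0.15, all 4 stellate cell markers were lower with a median of −0.09, and all 6 hepatocyte markers were lower with a median of −0.16. The list with the largest shift was that of red cells, whose 2 markers were lower with a median of −0.21, and of 3 sinusoidal endothelium markers 2 were lower with a median of −0.15. The summed hepatocyte signal lay between 19.85 and 20.56 on the log2 scale over the 20 liver arrays. Their part in the values of Oat and Gls2 was not tested.

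The ratios of the members also differed in how much they varied between liver arrays of one dose, a spread that includes that of the reference channel. The residual SD within dose groups was 1.06 log2 units for Cyp7a1, 0.616 for Cyp2e1, 0.421 for Oat, 0.316 for Sds, 0.283 for Pck1, 0.276 for Slc1a2, 0.203 for Glul, 0.166 for Hal and 0.158 for Gls2. The median over all probes was 0.185, and 0.154% of probes varied more than Cyp7a1, 1.05% more than Cyp2e1 and 4.00% more than Oat. Glul, Hal and Gls2 were thus near the middle of the array. With slide as a block the SD of Cyp2e1 fell to 0.382, whereas that of Cyp7a1 was 1.09. Means of Cyp2e1 on the 3 liver slides ran from 6.68 to 7.75, so much of its spread went with the slide and that of Cyp7a1 did not. Over the 20 liver arrays the reference channel of this Cyp2e1 probe varied more (SD 0.53) than its liver channel (SD 0.25). Its spread is therefore not a measure of liver RNA alone. The second Cyp2e1 probe had an SD of 0.40 over the 20 arrays, against 0.59 for this probe.

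**Figure D3:**
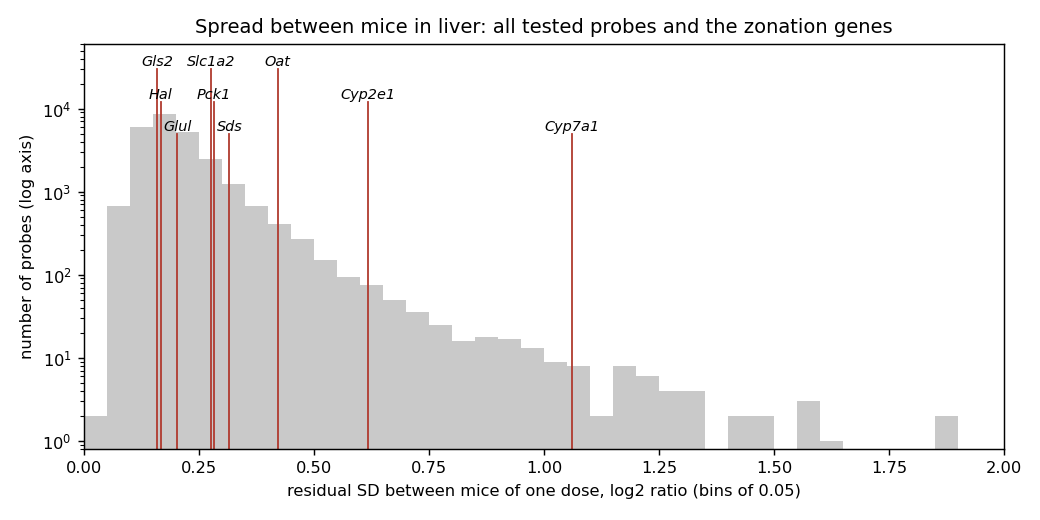
Residual SD of the log2 ratios within dose groups over the 20 liver arrays for all 25893 tested probes as a histogram, with a line for each member. Cyp7a1 (1.06) and Cyp2e1 (0.616) stand in the right tail, and Gls2 (0.158) and Hal (0.166) lie below the median of 0.185.

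For Cyp2e1 the reference channel itself differed between the tissues. After loess within arrays and scaling of the mean intensity between arrays, it read 11.13 ± 0.53 on the liver arrays (log2 signal, mean and SD of 20 arrays), although the same reference RNA read 6.47 on the lung arrays and 6.20 on the forestomach arrays. The liver channel read 18.44 ± 0.25, so over the livers the reference channel varied more than the tissue channel. The second probe showed the same order, with 8.40 in the reference channel of liver arrays against 5.97 and 5.85. For Hal, by contrast, the reference read 7.34, 7.23 and 6.82 on the arrays of liver, lung and forestomach. It read lower on the liver arrays for Cyp7a1 (5.19 against 5.97 and 5.83) and Slc1a2 (5.30 against 5.79 and 5.84). The same held for Sds (5.47 against 5.96 and 5.95) and Axin2 (5.86 against 6.01 and 6.11). For Pck1 it read higher there (5.98 against 5.75 and 5.65), and for Glul, Oat and Gls2 it lay between the other tissues. The difference of Cyp2e1 between tissues was accordingly smaller on ratios than on Cy5 signals, and the cause of the reference reading was not tested.

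Correlations over the 20 livers asked whether genes of one zone varied together between mice, with dose means removed. Of the 36 pairs of the 9 tested members 32 had a positive Pearson r, the range was −0.25 to 0.76 and the median was 0.24. The share of positive pairs among genes at large was not computed, and the median across zones of the longer lists below was 0.27. These counts therefore do not show a trait of the members. After adjustment over the 36 pairs, 3 passed. Gls2 and Sds, both periportal, had r = 0.756 (adjusted permutation p = 0.0302) and Spearman rho = 0.764 (adjusted permutation p = 0.0137), and r = 0.669 without the 2 mice farthest from the median of Gls2. The reference channel of Sds was above background on 16 of 20 liver arrays. On the 3 slides taken alone, where dose means were left in, r was −0.038, 0.81 and 0.58. These values are thus not comparable with the r of 0.756. With slide means removed as well as dose means r was 0.739 (adjusted permutation p = 0.0605). Slc1a2 and Cyp7a1, both pericentral, had r = 0.630 (adjusted permutation p = 0.0475), with rho = 0.632 (adjusted permutation p = 0.107) and r = 0.529 without the 2 farthest mice. Both of these ratios rest on a dim reference, which was above background on 7 of 20 liver arrays for Slc1a2 and on none for Cyp7a1. Their values within the slides, again with dose means left in, were 0.63, 0.67 and 0.47. With dose and slide means removed r was 0.607 (adjusted permutation p = 0.147). Hal and Sds, both periportal, had r = 0.641 (adjusted permutation p = 0.0475), with rho = 0.543 (adjusted permutation p = 0.313) and r = 0.507 without the 2 farthest mice. Within the slides, with dose means left in, r was 0.36, 0.46 and 0.16. With slide means removed r was 0.462 (adjusted permutation p = 0.362). No pair passed once slide means were removed, and none passed on the values as the authors normalized them, where Gls2 with Sds gave r = 0.714 (adjusted permutation p = 0.103). On the scanner program's processed signals r was −0.038 for Gls2 with Sds and 0.015 for Slc1a2 with Cyp7a1, so both relations were lost there, and Hal with Sds gave 0.60 (adjusted permutation p = 0.116).

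**Figure D4:**
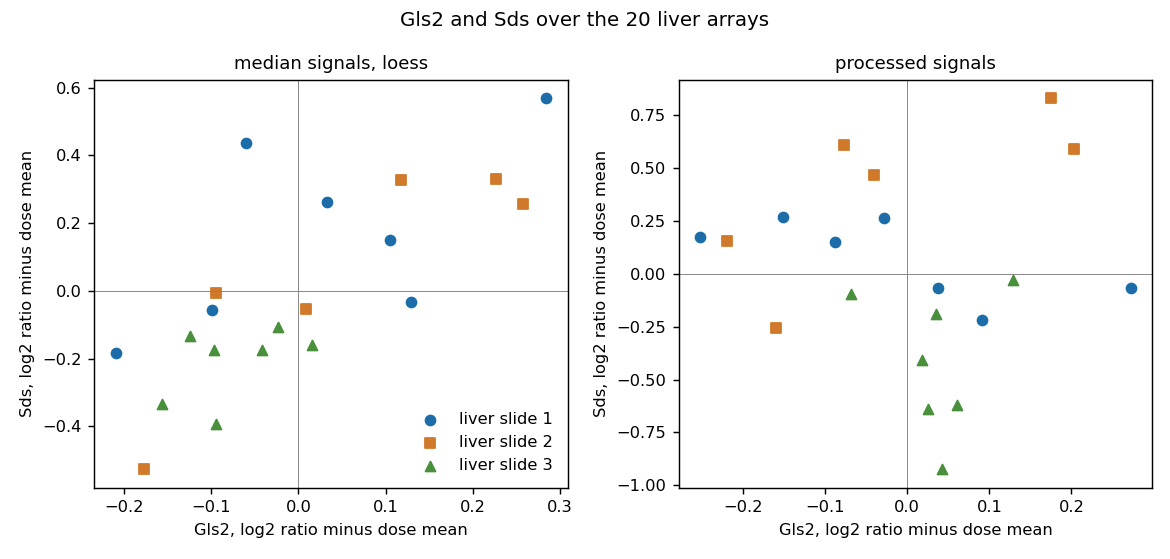
Log2 ratios of Gls2 and Sds in the 20 livers, each centred on its dose mean, with 1 point a mouse and a colour and mark for each slide. On loess ratios of median signals (left) the points rise together (r = 0.756), and on the scanner program's processed signals (right) they do not (r = −0.038).

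Over both fixed lists together with the tested members other than Cyp7a1, the median r was 0.32 among the 253 pairs of 23 pericentral genes, 0.42 among the 276 pairs of 24 periportal genes and 0.27 among the 552 pairs across zones. With slide means removed these were 0.13, 0.22 and 0.06. All of these values are across the same 20 arrays and share their slides and their reference. D1 mouse 9, singled out after the values were seen, had the highest Glul of the 20 livers (6.41), the second highest Cyp2e1 (8.19) and the third highest Oat (2.65), with a Cyp7a1 of 7.11. Its Slc1a2 was 6.48, within the range of the others. The periportal members had no common direction in that mouse, since Pck1 lay 0.20 above its dose mean while Hal and Gls2 lay at −0.07 and −0.18. Its Sds was low on loess ratios (5.94, or −0.53 from the dose mean) but above the dose mean by 0.16 on processed signals, and the reference channel of Sds was not above background on that array.

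Cyp7a1 was set against the 23 tested bile acid and clock genes, which were compared after its spread had been seen. None passed the adjustment over the 23. The largest r was that of Cyp8b1, at 0.612 (permutation p = 0.00676, adjusted 0.155, rho = 0.585), and 0.583 without the 2 farthest mice. Within the slides, with dose means left in, it was 0.64, 0.05 and 0.84. Next came Nr1h4 of the bile acid list, at 0.488 (adjusted permutation p = 0.167), and Klb, at 0.466 (adjusted permutation p = 0.269).

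The 3 genes closest to each member over the 20 livers, among 12873 genes compared by Pearson r of dose-centred values, were as follows. Glul lay closest to Tigar (0.873), Cdc34 (0.861) and Tmem209 (0.853), and Cyp2e1 to Bnip3l (0.894), Lcorl (0.888) and Ephx1 (0.887). With slide means removed the values of Cyp2e1 fell to 0.642, 0.636 and 0.611. Oat lay closest to Urb2 (0.805), Lhpp (0.795) and Itsn1 (0.789), and Lhpp is itself a gene of the pericentral list. Slc1a2 lay closest to Cyp17a1 (0.764), Tff2 (0.751) and Rhbg (0.748), of which Rhbg, an ammonium transporter, is on the pericentral list. For Cyp7a1 they were Dmd (0.803), Rsph3b (0.779) and Ugdh (0.769), and for Pck1 they were Cct5 (0.790), Psmb3 (0.762) and Map7 (0.756). For Hal they were Plvap (0.821), Slc28a1 (0.820) and Nrap (0.809). Gls2 and Sds shared their closest gene, 1700022I11Rik (0.839 and 0.900), followed by Dalrd3 (0.812) and Ikbkb (0.797) for Gls2 and by Gm1604b (0.871) and Dusp23 (0.859) for Sds. The highest r out of 12873 is high by selection, and these values carry no test.

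The next comparison set liver against the other tissues of the D0 mice, to show which members were liver genes in these animals. Of the 10 members 8 were called higher in liver than in lung, where 19% of 33255 probes were, and 9 were called higher than in forestomach, where 18.2% were. Cyp7a1 and Sds are among both counts but entered the test through liver, the tissue where they are high, since only 1 array of each other tissue was above background for either gene. The log2 difference in the ratio from lung was 2.43 ± 0.29 (SE) for Glul, 4.52 ± 0.64 for Cyp2e1, 5.13 ± 0.28 for Slc1a2 and 6.89 ± 0.33 for Hal, all above background on every D0 lung array. It was 9.02 ± 0.69 for Pck1 and 7.21 ± 0.21 for Gls2, each of which was well above background on 1 of 5 D0 lung arrays, so these sizes rest mostly on dim readings. The adjusted p-values by limma were 1.9e-08 or less for the 8 genes called. The differences from forestomach were 2.84 for Glul, 4.16 for Cyp2e1 and 1.08 for Oat, which were above background on all 5 D0 forestomach arrays. They were 5.86 for Slc1a2 (1 of 5 arrays above background), 7.69 for Pck1 (2 of 5), 5.96 for Hal (3 of 5) and 5.93 for Gls2 (3 of 5). These sizes rest in part on dim readings, and those of Slc1a2 and Pck1 mostly so.

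The broadly expressed member was Oat, whose difference from lung was 0.47 ± 0.17, or 1.38-fold, with an adjusted p of 0.0155 by limma but under the fold required. Glul was likewise above background on every array of every tissue, with log2 ratios of 2.94 to 3.74 in lung and 1.88 to 4.94 in forestomach against 5.61 to 6.41 in liver. Cyp7a1 and Sds were not well above background on any of the 5 D0 arrays of the other tissues, so only a bound can be given for them. Cyp7a1 was at least 25.5-fold higher in liver than in lung and at least 24.3-fold higher than in forestomach on the Cy5 signals, and Sds at least 58.8-fold and 58.1-fold. On the same signals Cyp2e1 was 725-fold higher in liver than in lung and 519-fold higher than in forestomach. Axin2 was above background on 7 of 20 lung arrays, 1 of 20 forestomach arrays and no liver array, so no size is given for its difference. A fold from Cy5 signals of arrays without dye swaps is open to dye bias.

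**Figure D5:**
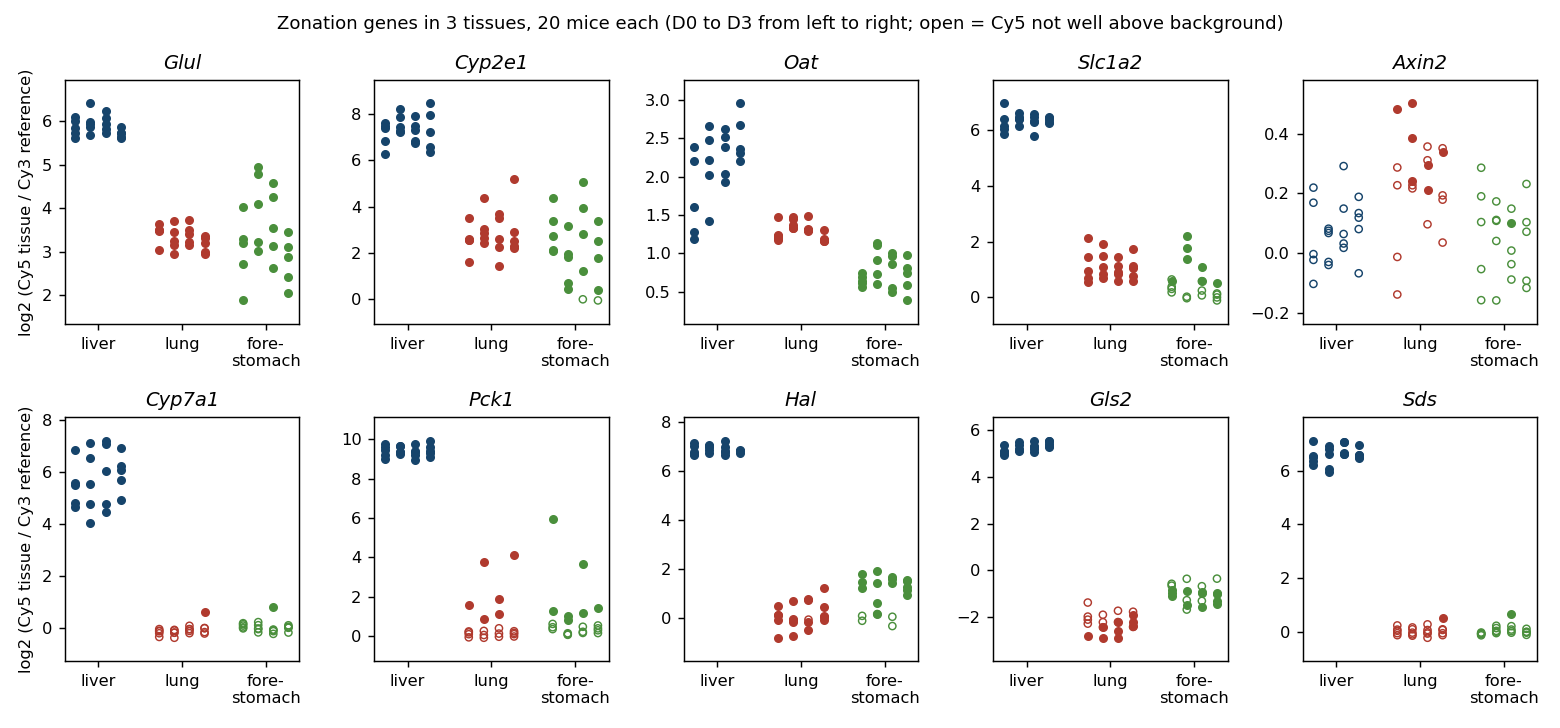
Log2 ratios of the members in each mouse in liver, lung and forestomach, with 1 point an array, D0 to D3 from left to right within a tissue, and open marks where Cy5 was not well above background. The values of Oat in lung (1.16 to 1.49) overlap those in liver (1.18 to 2.95), and those of Gls2 in lung (−2.88 to −1.37) lie below all its liver values.

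In lung and forestomach the highest values of Cyp2e1, Pck1, Cyp7a1 and Sds lay on the arrays that stood apart. Lung mouse 20 (D3) had log2 ratios of 5.19 for Cyp2e1, 4.12 for Pck1, 1.21 for Hal, 0.60 for Cyp7a1 and 0.52 for Sds. On that array all 6 hepatocyte markers were above background with a summed log2 signal of 14.34, against 1 to 4 markers and 8.87 to 9.95 on the other 19 lung arrays. Its summed fat cell signal was also high, at 13.53, and ranked 3 among the 20 lung arrays. Forestomach mouse 15 (D2) had 5.08 for Cyp2e1, 3.65 for Pck1, 0.78 for Cyp7a1 and 0.67 for Sds, with a summed hepatocyte signal of 15.28, against 8.67 to 14.17 on the others. It was 1 of the 9 forestomach arrays with all 6 hepatocyte markers above background, and the others had 0 to 6. Pck1, which fat cells also use to make glycerol, was also high on 2 arrays whose summed hepatocyte signals, 9.79 and 9.55, lay within the range of the others. Lung mouse 8 (D1) had 3.75 for Pck1 and 4.38 for Cyp2e1 with a summed fat cell signal of 16.19 (others 9.76 to 14.36), and forestomach mouse 5 (D0) had 5.97 and 4.39 with 15.93 (others 12.18 to 15.06). Lung mouse 1 (D0) had 1.56 for Pck1, a fat cell signal of 12.59, and squamous and skeletal muscle signals of 17.61 and 17.11 against at most 11.34 and 9.91 on the other lung arrays. Forestomach mouse 2 (D0) had all 4 lung epithelium markers above background with a sum of 18.80, against 1 to 3 markers and 10.34 to 14.22 on the others, and its values were 4.03 for Glul, 2.11 for Cyp2e1 and 0.45 for Pck1.

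Without these arrays Pck1 ran from −0.09 to 1.87 in lung and from 0.06 to 1.43 in forestomach, and Cyp2e1 from 1.46 to 3.68 and from −0.04 to 3.92. Cyp7a1 and Sds then had no array above background in either tissue. Other members were high on further arrays. Hal was above background on 13 of the remaining 17 forestomach arrays with a median of 1.24, and its highest value (1.94) was that of D1 mouse 6. Glul (4.94) and Slc1a2 (2.18) peaked in forestomach D1 mouse 9, which also had the highest sum of the bile duct list (17.00, others 11.16 to 16.71), whose keratins and Epcam are shared by other simple epithelia. Without lung mouse 1 and forestomach mice 2 and 5 the tissue comparison at D0 again called 8 and 9 members higher in liver. The difference of Glul from forestomach was then 3.23, and no size is given for Pck1 in lung, where mouse 1 was the only D0 array above background. The part of these cell types in the values was not tested.

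The last comparison asked whether the change at D3 differed between liver and the other tissues. None of the members was called, and 0% of 33255 probes were against lung and 0% against forestomach, although 984 and 1416 probes had an unadjusted p under 0.05. The change of Oat was larger in liver than in lung by 0.83 ± 0.24 (unadjusted p = 0.0012, adjusted p = 1.00, limma) and than in forestomach by 0.71 ± 0.24 (adjusted p = 1.00). For Gls2 the differences were 0.36 ± 0.30 and 0.52 ± 0.30. Without the 6 arrays that stood apart, Oat differed by 0.84 ± 0.27 and 0.73 ± 0.28 and again no member was called, while 16 probes were called against forestomach. In lung 8 members were tested among 31022 probes, of which 0% were called at each dose, and no member was, with changes at D3 between −0.27 (Glul) and 0.52 (Pck1), while 688, 1055 and 1492 probes had an unadjusted p under 0.05 from D1 to D3. The change of Pck1 in lung rested on mouse 20, and was −0.28 ± 0.60 without that mouse and 0.01 ± 0.31 without the 3 lung arrays that stood apart. In forestomach 7 were tested among 25070 probes, of which again 0% were called, with none of the members and changes at D3 between −1.34 (Cyp2e1) and 0.38 (Hal), while 2348, 916 and 377 probes had an unadjusted p under 0.05 from D1 to D3. There the change of Pck1, −1.17 ± 0.85, was −0.11 ± 0.53 without mouse 5 and −0.18 ± 0.32 without the 3 forestomach arrays that stood apart, and that of Cyp2e1 was −1.13 ± 0.88 without those 3.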

How the data were processed

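The deposited scanner files give the intensity of each spot as median signals with the background included, and per the file headers they were extracted with Feature Extraction 10.7.3.1. The authors' deposited log2 ratios of Cy5 to Cy3 had been normalized by LOWESS without background subtraction, and their medians per array ran from −0.041 to −0.014. Both kinds of value came from 60 arrays. Groups and mice follow the labels.

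Of 62976 spots per array, 3671 controls were left out of the tests and 0.460% of values with an outlier flag were set to missing. No value was saturated. Log2 ratios of the median signals were normalized within arrays by loess (limma 3.58.1, R 4.3.3, data.table version 1.17.8) and averaged per probe, and they correlated with the deposited ratios at r of 0.992 to 0.999. Symbols came from RefSeq accessions for 26413 of 55681 probes (47.4%), through a RefSeq gene table (GRCm38.p6) that served for names, as the file headers name mm9.

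In each tissue the probes tested were those flagged well above background in the Cy5 channel of 5 or more of its 20 arrays. Doses were compared with D0 by limma's moderated test, a slope on dose was fitted, and tissues were compared in a model of the 12 groups, with two-sided tests, Benjamini-Hochberg adjustment over all probes and calls at an adjusted p of 0.05 and 1.5-fold (slope: adjusted p alone). Residual shuffling, which the study's methods name, was an alternative, with 100 shufflings of limma's moderated statistic in place of the Fs statistic. A fold is given as "at least" where a probe was below background on all D0 arrays of a tissue. It comes from Cy5 signals after loess and Aquantile, with the lowest signal well above background standing in for the dim arrays. Correlations were tested by 100000 permutations of mice within doses. They covered 36 pairs rather than the 45 first intended, because Axin2 was below background. On simulated data for liver at D3, the fit recovered 94% of changes of 1 and 100% of changes of 2 on the log2 scale among 25893 probes. The changes were placed in probes chosen at random, with independent noise and no slide effect. These shares therefore do not apply to members with a large spread, such as Cyp7a1, Cyp2e1 and Oat, or to changes near 1.5-fold. A mouse number marks the same animal in each tissue per the labels, and the correlation within mice was 0.08. With 5 arrays per group, their number limits the precision.

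The members, the lists and the tests were chosen with earlier results of these data known. The genes named are the 10 members, the genes of each list that were called or else the 2 with the largest change at D3, and the 3 genes closest to each member. Nr1h4 is named in addition for its correlation with Cyp7a1. Cyp2a5 of the pericentral list was not matched. Marker lists covered hepatocytes, squamous epithelium, fat cells, skeletal muscle, lung epithelium, Kupffer cells, sinusoidal and central vein endothelium, stellate cells, bile duct cells, red cells, B cells, T cells and pancreatic acinar cells, and none of their genes was called in liver.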

Additional observations from a re-analysis of the deposited data

Results flagged for a closer look

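In 12 of 120 groups of 5 values, 1 mouse lay apart from the other 4 by Dixon's criterion, which chance alone gives in about 1 of 20 groups. In liver the single case was Sds in D3 mouse 18, at 6.94 against 6.48 to 6.58 in the others. In lung Pck1 was flagged in D0 mouse 1 (1.56), D1 mouse 8 (3.75) and D3 mouse 20 (4.12), and in forestomach in D0 mouse 5 (5.97). Lung mouse 20 was also apart for Cyp2e1 (5.19 against 2.22 to 2.92) and for Cyp7a1 (0.60 against −0.23 to −0.01), and forestomach mouse 15 for Cyp7a1 (0.78 against −0.24 to −0.07). These are 3 lung and 2 forestomach arrays that also stood apart in a marker list of another cell type, as did forestomach mouse 2, which was apart for no member. The other cases were small differences in lung, namely Glul in D0 mouse 4 (3.04 against 3.48 to 3.64) and Oat in D0 mouse 2 (1.48 against 1.17 to 1.24), D2 mouse 14 (1.49 against 1.29 to 1.32) and D3 mouse 17 (1.31 against 1.16 to 1.19).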

How the results depend on the processing

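Of 1618 values recomputed under alternatives, 1567 kept their direction and their side of the threshold or moved by less than the limit set for counts. They include repeats with 1 mouse left out and a scaling that cannot change a ratio, so the tally does not measure robustness. The number of members called in liver, lung and forestomach was 0 in every setting run, slide as a block with each liver mouse left out in turn included. The number of liver probes called at D3 was 0 in the report, 5 on processed signals, 24 with slide as a block, 5 with all 60 arrays in the fit, and 0 to 29 with a mouse left out (29 without D0 mouse 1). At D1 it was 1 with all 60 arrays. For the slope, 62 probes in the report became 117 on processed signals, 171 where all 20 arrays had to be above background, 677 with slide as a block, 141 with a variance trend and robust fit, and 0 to 239 with a mouse left out (239 without D0 mouse 1, and 0 without mouse 3, 17, 19 or 20). In lung 21 probes were called at D3 with slide as a block, and leaving out mouse 5 gave 1 probe whose change differed between liver and forestomach (0 to 1 over the mice), against 16 without the 6 arrays that stood apart, 1 of the alternatives chosen after seeing the data.

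The change of Oat at D3 ran from 0.69 to 0.77 over the settings (adjusted p of 0.0695 to 0.306) and from 0.63 to 0.93 with a mouse left out, and that of Gls2 from 0.26 to 0.34 and from 0.28 to 0.39. On processed signals the change of Pck1 was −0.19 and that of Sds −0.32. Leaving out 1 mouse turned the sign of small changes, with ranges of −0.090 to 0.44 for Cyp2e1, −0.014 to 0.26 for Slc1a2, −0.056 to 0.15 for Pck1, −0.093 to 0.032 for Hal and −0.0050 to 0.22 for Sds. The number of correlated pairs, 3 in the report, was 0 with slide means removed, 0 on the deposited ratios and 0 on processed signals, where Gls2 with Sds gave −0.038. The value of −0.038 on liver slide 1 is of loess ratios with dose means left in, so it is not comparable with the r of the report. The cause of these differences was not tested.

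Between tissues at D0, 8 and 9 members were called in each setting other than leaving out 1 array, where Oat passed against lung without the liver array of D0 mouse 3 (0.60, adjusted p = 0.0024). Without lung mouse 1 and forestomach mouse 5, or forestomach mouse 2 as well, also chosen after seeing the data, 8 and 9 members were called. With mouse as a replicate block, 8 and 9 members were again called between tissues and the probes called went from 14753 to 14811 against lung and from 13037 to 13102 against forestomach, and the pairing called no member for the change at D3. Scaling of mean intensities between arrays leaves each ratio as it is and so gave the values of the report.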
